A study of Homo sapiens with 6 samples.

Results

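YAP1 and WWTR1, the gene of TAZ, were examined together with 8 genes in common use as readouts of the proteins they encode. The 8 genes were CTGF, CYR61, ANKRD1, AMOTL2, AXL, LATS2, NUAK2 and F3. The members were chosen by symbol, and all 10 were found among the 20802 genes measured, CTGF and CYR61 under these older names of CCN2 and CCN1. Expression was measured in MCF10A, a human line of benign breast epithelium, with the Ion AmpliSeq Transcriptome panel, which copies a single short amplicon per gene from cDNA and counts its reads.

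The 6 libraries carry the labels wt, eGFP and GIRK1, with 2 replicates each. The wt libraries carry only the genotype wt. The eGFP control was made stable with the plasmid pIRES2eGFP. The GIRK1 cells carry the same plasmid with the coding sequence of human GIRK1, the potassium channel subunit encoded by KCNJ3, so that they also make eGFP. Both transfected lines were selected with G418 and sorted on eGFP fluorescence, steps that the wt cells did not share, and all cells were harvested by trypsin before reaching confluence. The methods speak of replicates and the design text of separate lines, and nothing says that replicates came from separate cultures. The p-values below therefore measure the spread between libraries, which may be technical. In the names of the deposited data both GIRK1 libraries carry a tag that differs from that of the other 4. The meaning of the tag is not given, and a run, if that is what it marks, cannot be told apart from the condition.

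YAP and TAZ are co-activators without a DNA-binding domain of their own. They enter the nucleus and bind the TEAD transcription factors at target genes. The Hippo kinases, among them LATS1 and LATS2, phosphorylate YAP and TAZ, which keeps them in the cytoplasm or leads to their breakdown. In epithelial cells crowding, cell contact and a soft matrix hold YAP and TAZ inactive, whereas spreading and tension activate them. This control acts on the proteins, so a transcript level of YAP1 or WWTR1 is not a measure of their activity.

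The windows of 250 bases before the RefSeq start sites (GRCh38.p14) were searched for the letters GGAATG, the core of the TEAD motif, and for its reverse complement CATTCC. Of all 35116 starts, 11.9% had at least 1 match. Starts were given for 9 of the 10 members, CYR61 being the gene without an entry, and of their 12 starts 6 had a match, each in a different gene. CTGF had 3 matches, beginning 169, 104 and 95 bases before the start, a number reached by 28 of all starts (0.0797%). ANKRD1 and NUAK2 had 2 matches each, and at least 2 were found before 0.928% of all starts. YAP1 had 1 match, AMOTL2 and AXL had 1 match before the second of their 2 listed starts, and WWTR1, LATS2 and F3 had none. The windows of CTGF and F3 are shown because CTGF had the most matches and F3 the largest difference between the lines. CTGF is read at chr6:131951374-131951622 and F3 at chr1:94541801-94542009, both on the minus strand of GRCh38.p14 and cut off where the GENCODE gene begins. Capitals mark the matches.
CTGF: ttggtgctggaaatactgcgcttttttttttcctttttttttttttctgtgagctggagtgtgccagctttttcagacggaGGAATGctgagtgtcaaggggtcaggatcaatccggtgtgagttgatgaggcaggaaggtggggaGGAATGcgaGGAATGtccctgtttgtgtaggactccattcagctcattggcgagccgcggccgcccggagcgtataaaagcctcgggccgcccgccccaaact
F3: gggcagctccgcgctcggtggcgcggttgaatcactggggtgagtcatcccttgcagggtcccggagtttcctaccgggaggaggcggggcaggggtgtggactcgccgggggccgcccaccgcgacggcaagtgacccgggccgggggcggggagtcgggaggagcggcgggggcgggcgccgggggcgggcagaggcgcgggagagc
A match in these letters is a description of the sequence and was not tested as a binding site. No factor was mapped in these cells.

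The libraries held between 2506120 reads (wt replicate 1) and 16040556 reads (wt replicate 2), and 3 reads, the least taken here as detectable, came to between 0.187 and 1.20 RPM (reads of a gene scaled to a fixed library total). KCNJ3 had 2408 and 3677 reads in the GIRK1 libraries, 0 reads in both eGFP libraries and in wt replicate 2, and 48 reads in the library labelled wt replicate 1. That library also went against its label in the summed level of 10 markers of basal mammary epithelium, the kind MCF10A is. They summed to 64.6 RPM in it and to between 14594 and 33120 RPM in the other 5 libraries. In those 5, 9 of 10 were above 3 reads and TP63 was at 0 reads. CD44 did not go that way, with 3.19 RPM in wt replicate 1 and 1.17 to 6.05 RPM in the others. The summed level of 12 luminal markers was 19276 RPM in the library labelled wt replicate 1 and 539 to 1032 RPM elsewhere. That library was therefore left out of the main test and of all alternatives except the fit with all 6 libraries. Its values are given apart. The upper ends of the ranges of adjusted p given below against eGFP came from that fit. The replicates of eGFP were less alike than those of GIRK1. Of the 9288 genes that averaged 50 reads or more, 9.67% lay at least 2-fold apart between the eGFP libraries and 1.28% between the GIRK1 libraries, and eGFP replicate 1 also stood 2-fold or more from wt replicate 2 in 12.6% of genes, against 0.958% for eGFP replicate 2.

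Counts of the 5 remaining libraries were compared with edgeR's quasi-likelihood test over 11779 genes, and the members were read from that fit. Each value is an RPM level or a log2 fold change, and a gene was called at an adjusted p below 0.05. ANKRD1 did not pass the filter on low counts, so 9 members were tested. None of the 9 was called in GIRK1 against eGFP, where 1.6% of all genes tested were called (0.84% of genes as lower). At an unadjusted p below 0.05, 5 members were lower in GIRK1, namely WWTR1, CYR61, AXL, NUAK2 and F3, where 10.7% of all genes were, and 1 member, AMOTL2, was higher, where 8.13% were. DESeq2, run as an alternative test, called 2 of the 9, CYR61 and F3, both lower, where it called 5.86% of the 11550 genes to which it gave an adjusted p (3.9% as lower). Against wt replicate 2 none was called and none had an unadjusted p below 0.05, where 0.229% and 7.38% of all genes did. DESeq2 also called none there, where it called 1.15% of 11093 genes. Both comparisons use the same GIRK1 libraries, and wt replicate 2 is a lone library that the fit assumes to vary like the other groups.

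**Figure D1:**
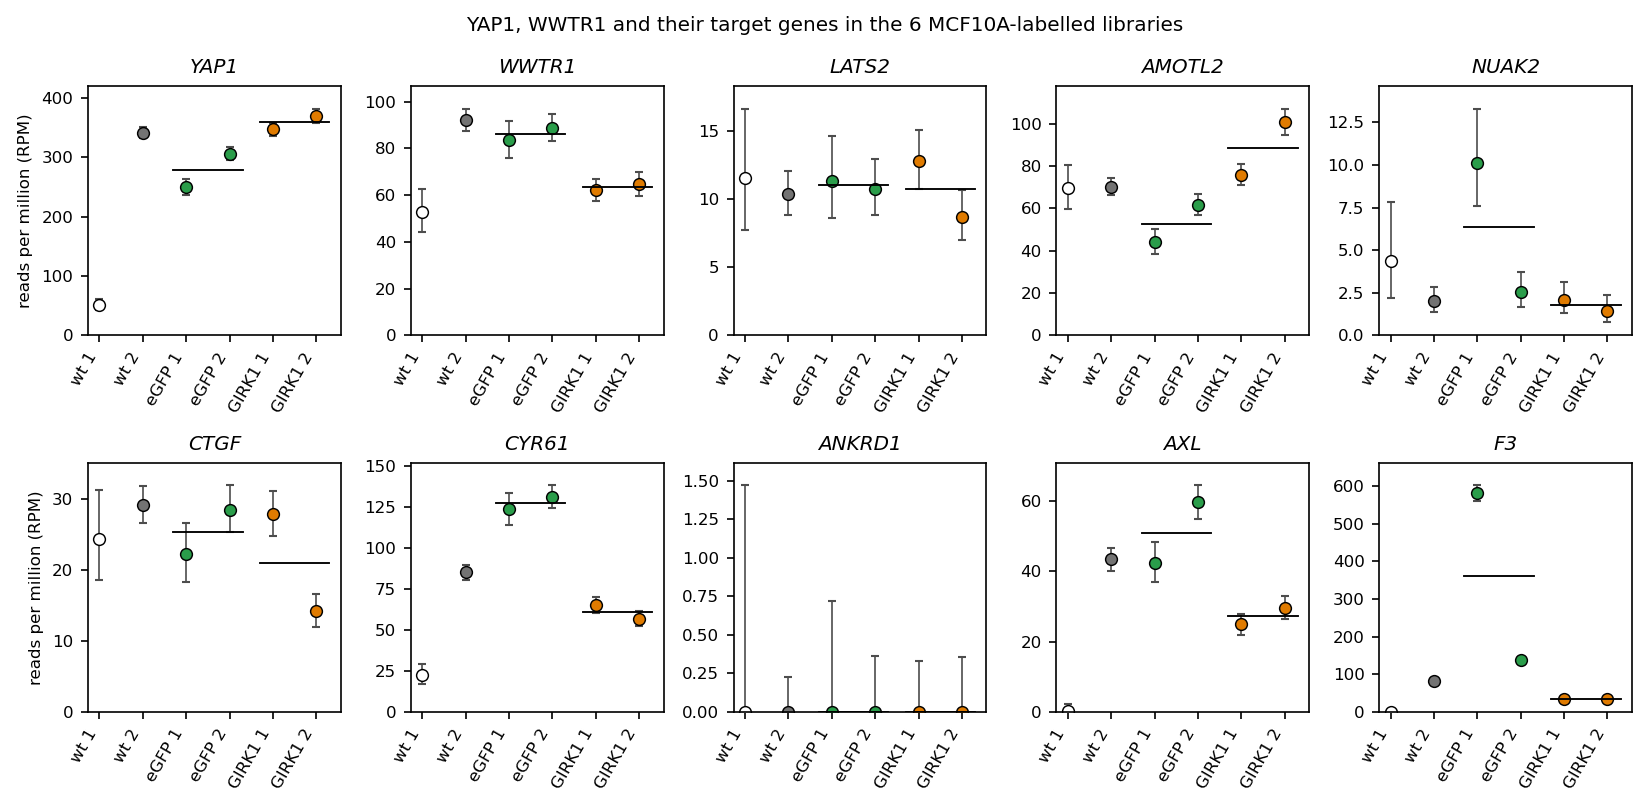
Level of each of the 10 genes in the 6 libraries, in RPM on a linear axis from 0 that differs between panels. Points are libraries (white, wt replicate 1; grey, wt replicate 2; green, eGFP; orange, GIRK1), bars are exact 95% binomial intervals that cover counting error only, and lines are means of the eGFP and of the GIRK1 pair. In CYR61, AXL, WWTR1 and F3 both orange points lie under the grey and green ones, as in 19.3% of all genes tested. ANKRD1 is at 0 throughout.

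Among the co-activators, YAP1 had the higher mean and WWTR1 the lower mean in GIRK1, and neither was called. YAP1 lies on chromosome 11 from 102110461 to 102233423 (plus strand, GRCh38, GENCODE). It had 250 and 307 RPM in the eGFP libraries, 341 RPM in wt replicate 2, and 348 and 370 RPM in the GIRK1 libraries. Both GIRK1 values were above the 3 control values, as in 21.6% of all genes tested. The lower GIRK1 value exceeded wt replicate 2 by less than the 2 GIRK1 libraries differed from each other. The fitted log2 fold change was 0.33 ± 0.21 (SE) against eGFP (edgeR adjusted p = 0.422) and 0.09 ± 0.26 against wt replicate 2 (adjusted p = 0.969), the latter 0.029 without GIRK1 replicate 2 and 0.16 without GIRK1 replicate 1.

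WWTR1 lies on chromosome 3 from 149517235 to 149736714 (minus strand). The gene had 83.5 and 88.7 RPM in eGFP, 92.2 RPM in wt replicate 2, and 62.0 and 64.7 RPM in GIRK1. The GIRK1 pair lay below the 3 control libraries, as in 19.3% of all genes tested. The replicates within each pair were close, 86.1 ± 3.71 RPM (SD, n = 2) in eGFP and 63.3 ± 1.86 RPM (n = 2) in GIRK1. The log2 fold change was -0.48 ± 0.20 against eGFP, a 1.40-fold lower level (unadjusted p = 0.0451, edgeR adjusted p = 0.254). It was -0.52 ± 0.24 against wt replicate 2 (adjusted p = 0.6998). In bulk RNA, fewer cells that express a gene and less RNA per cell cannot be told apart.

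The secreted matrix proteins CTGF and CYR61, both of the CCN family and the most used readouts of YAP and TAZ, differed in how far GIRK1 stood from the controls, and neither was called. CYR61 lies on chromosome 1 from 85580761 to 85583962 (plus strand). It had 633 and 1341 reads in eGFP (123 and 131 RPM), 1366 reads in wt replicate 2 (85.2 RPM), and 725 and 587 reads in GIRK1 (65.3 and 56.7 RPM). Wt replicate 2 thus lay between the groups, under both eGFP libraries and above both GIRK1 libraries. The means were 127 ± 5.35 RPM (SD, n = 2) in eGFP and 61.0 ± 6.04 RPM (n = 2) in GIRK1. The log2 fold change against eGFP was -1.10 ± 0.20, a 2.15-fold lower level, and narrowly missed the threshold (edgeR adjusted p = 0.0565, range 0.00151 to 0.934 over 14 alternatives). It was called in 5 of the 14, among them the fits without eGFP replicate 1 (-1.08) and without eGFP replicate 2 (-1.12). Those fits take their spread from the GIRK1 pair alone. It was not called without GIRK1 replicate 1 (-1.19) or without GIRK1 replicate 2 (-1.02), where the spread came from the eGFP pair alone. The difference from wt replicate 2 was -0.46 ± 0.24 (adjusted p = 0.757).

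CTGF lies on chromosome 6 from 131948176 to 131951373 (minus strand). It had 22.2 and 28.5 RPM in eGFP, 29.2 RPM in wt replicate 2, and 27.9 and 14.2 RPM in GIRK1. The GIRK1 libraries were 1.96-fold apart, and the first of them lay within the range of the controls. On the log2 scale the difference was -0.31 ± 0.34 against eGFP (edgeR adjusted p = 0.653) and -0.45 ± 0.41 against wt replicate 2 (adjusted p = 0.870). Without GIRK1 replicate 2 the value against eGFP was 0.08, so its direction rested on that library. Against wt replicate 2 it was -0.06 without GIRK1 replicate 2 and -0.998 without GIRK1 replicate 1.

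The genes whose levels followed each of the pair most closely over the 5 libraries were taken from the same 9288 genes, by the root mean square difference of centred log2(RPM + 1) values. For CYR61 they were NFKBIE (0.0399), CDC45, ALDH7A1, DGKA and ZWINT (0.102). For CTGF they were SLC2A13 (0.0320), ALDH3B1, GSR, TFEB and GLMN (0.0948). No other member was among them, but ANKRD1 and NUAK2 averaged under 50 reads and could not be. With 5 genes kept of 9288, the absence of other members does not show how alike the members were. The 5 libraries are also few for such a ranking.

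Some members act back on the pathway. AMOTL2 is an angiomotin family protein that binds YAP at cell junctions, LATS2 is the kinase that phosphorylates YAP and TAZ, and NUAK2 is a kinase related to AMPK. AMOTL2 lies on chromosome 3 from 134355874 to 134375479 (minus strand). It had 43.9 and 61.6 RPM in eGFP, 70.2 RPM in wt replicate 2, and 75.8 and 101 RPM in GIRK1. Both GIRK1 libraries were above the 3 controls, as in 21.6% of all genes tested, with wt replicate 2 close to the lower GIRK1 value. Its log2 fold change was 0.71 ± 0.25 against eGFP (unadjusted p = 0.0254, edgeR adjusted p = 0.199). Over 14 alternatives it ran from 0.47 without GIRK1 replicate 2 to 0.92 without GIRK1 replicate 1, and it was 0.91 without eGFP replicate 2. It was 0.35 ± 0.31 against wt replicate 2 (adjusted p = 0.865), and 0.11 without GIRK1 replicate 2 or 0.56 without GIRK1 replicate 1.

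LATS2 lies on chromosome 13 from 20973032 to 21061547 (minus strand). It had 11.3 and 10.7 RPM in eGFP, 10.3 RPM in wt replicate 2, and 12.8 and 8.70 RPM in GIRK1. The control libraries lay inside the range of the GIRK1 pair. Its log2 fold change was -0.08 ± 0.31 against eGFP (edgeR adjusted p = 0.911) and 0.07 ± 0.37 against wt replicate 2 (adjusted p = 0.981), and the former changed sign to 0.16 without GIRK1 replicate 2 and to 0.018 without eGFP replicate 1.

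NUAK2 lies on chromosome 1 from 205302059 to 205321791 (minus strand) and had few reads. It had 52 and 26 reads in eGFP (10.1 and 2.54 RPM), 32 reads in wt replicate 2 (1.995 RPM), and 23 and 15 reads in GIRK1 (2.07 and 1.45 RPM). The eGFP libraries were 3.99-fold apart, and wt replicate 2 lay within the range of GIRK1. The log2 fold change against eGFP was -1.85 ± 0.73 (unadjusted p = 0.0392, edgeR adjusted p = 0.240, range over 14 alternatives 0.00278 to 0.934). Its size rested on eGFP replicate 1. It was -0.51 without that library and -2.62 without eGFP replicate 2, fits that take their spread from the GIRK1 pair alone. It was -0.16 ± 0.88 against wt replicate 2 (adjusted p = 0.982).

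AXL and F3 encode cell surface proteins, a receptor tyrosine kinase that binds GAS6 and tissue factor, which starts blood coagulation. AXL lies on chromosome 19 from 41219203 to 41261766 (plus strand). It had 217 and 609 reads in eGFP (42.3 and 59.5 RPM), 695 reads in wt replicate 2 (43.3 RPM), and 276 and 306 reads in GIRK1 (24.8 and 29.6 RPM). Both GIRK1 libraries lay below the 3 controls, as in 19.3% of all genes tested. The log2 fold change against eGFP was -0.94 ± 0.25, a 1.92-fold lower level (unadjusted p = 0.00661, edgeR adjusted p = 0.120, range over 14 alternatives 0.00405 to 0.978). It was called without eGFP replicate 1 (-1.11) and without eGFP replicate 2 (-0.74), fits that take their spread from the GIRK1 pair alone. It was not called without GIRK1 replicate 1 (-0.80) or without GIRK1 replicate 2 (-1.08), where the spread came from the eGFP pair alone. The corresponding value against wt replicate 2 was -0.65 ± 0.29 (adjusted p = 0.691).

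F3 had the largest difference of the 9 and the widest spread among controls. It lies on chromosome 1 from 94529225 to 94541800 (minus strand). It had 2979 and 1420 reads in eGFP (581 and 138.8 RPM), 1302 reads in wt replicate 2 (81.2 RPM), and 378 and 365 reads in GIRK1 (34.0 and 35.3 RPM). All 3 control libraries were above both GIRK1 libraries, as in 19.3% of all genes tested. The GIRK1 pair agreed within 1.04-fold while the eGFP pair lay 4.19-fold apart. The log2 fold change against eGFP was -3.45 ± 0.66, a 10.9-fold lower level (unadjusted p = 0.00121, edgeR adjusted p = 0.0612, range over 14 alternatives 6.5e-10 to 0.934). Leaving out eGFP replicate 1 gave -1.98 and leaving out eGFP replicate 2 gave -4.17, fits that take their spread from the GIRK1 pair alone. F3 was called in both of them, and also without GIRK1 replicate 1 (-3.41) and without GIRK1 replicate 2 (-3.49). Against wt replicate 2 the log2 fold change was -1.21 ± 0.71 (adjusted p = 0.785), and it was called at -1.21 without either eGFP library (adjusted p = 0.0011 without replicate 1 and 0.00327 without replicate 2, range over 12 alternatives 0.0011 to 1). The size of the F3 difference thus depended on the control, from 2.31-fold against wt replicate 2 to 10.9-fold against eGFP.

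ANKRD1, a nuclear ankyrin repeat protein best known from heart and skeletal muscle, lies on chromosome 10 from 90912096 to 90921276 (minus strand). It had 0 reads in all 6 libraries. The limit of 3 reads came to 0.187 RPM in the deepest library and 1.20 RPM in the shallowest, and the exact 95% binomial intervals of a count of 0 reached 0.230 and 1.47 RPM there. No library here shows that its amplicon works, and the amplicon of JUN, an immediate early gene, also had 0 to 4 reads per library.

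Across the 9 tested members, 7 had a log2 fold change below 0 against eGFP and 6 against wt replicate 2. The median was -0.48 against eGFP and -0.45 against wt replicate 2, where the medians of all genes tested were 0.02 and 0.01. Both GIRK1 libraries lay below the 3 control libraries in 4 members, WWTR1, CYR61, AXL and F3, where 19.3% of all genes tested did. Both lay above them in 2 members, YAP1 and AMOTL2, where 21.6% did. The list is small, and no test was made of the list as a whole. By the rule of the study's methods, a mean RPM at least 2-fold apart with coefficients of variation under 0.7 in both groups, CYR61 was the only member past the limits, 2.09-fold lower in GIRK1, where 5.17% of 13200 genes were lower by that rule. F3 and NUAK2 exceeded 2-fold but had coefficients of 0.869 and 0.848 in eGFP, and AXL was 1.87-fold lower. On reads not scaled to the library total, the rule called 1270 genes higher and 270 lower in place of 627 and 682. Of the members it called AMOTL2, NUAK2 and F3 in place of CYR61. Depth is left uncorrected there, with 5126930 and 10233974 reads in the eGFP libraries and 11107309 and 10346572 in the GIRK1 libraries.

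**Figure D2:**
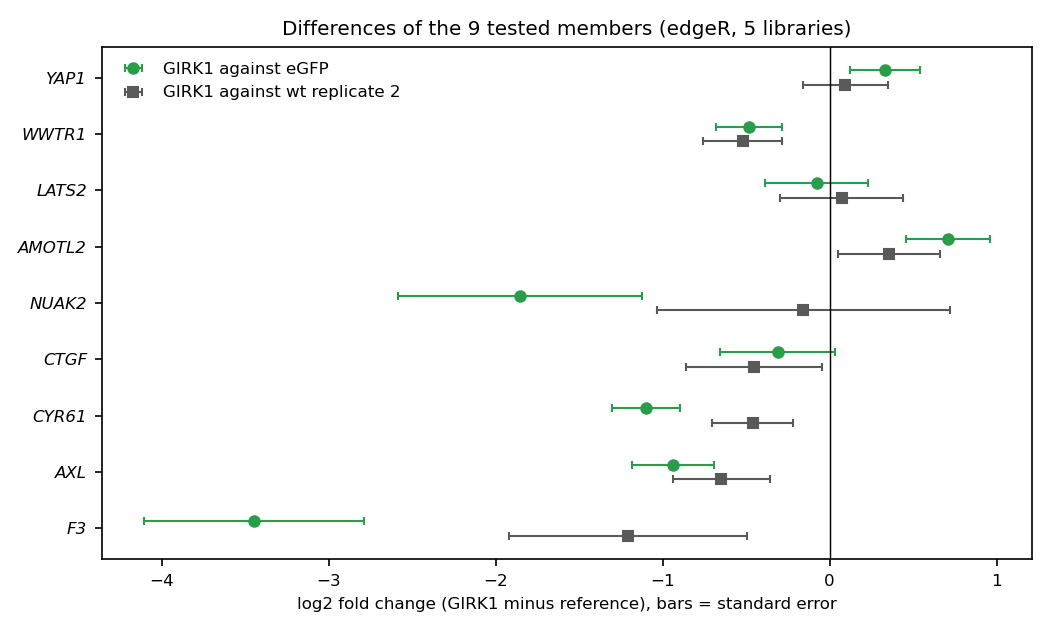
Log2 fold change of GIRK1 against eGFP (green circles) and against wt replicate 2 (grey squares) for the 9 tested members, with bars of 1 standard error from the edgeR fit of 5 libraries. F3 lies at -3.45 and -1.21, CYR61 at -1.10 and -0.46, and none of the values passed the adjusted threshold.

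Other genes of the pathway were read from lists written from general knowledge. Of 14 further YAP and TAZ target genes, 13 were tested and 0 were called by edgeR in either comparison, with a median log2 fold change of 0.04 against eGFP and -0.09 against wt replicate 2. At an unadjusted p below 0.05 against eGFP, 2 were lower, where 10.7% of all genes were, and 1 was higher, where 8.13% were. These genes were chosen here for their values. NT5E, the surface enzyme CD73 that makes adenosine, had 286 and 104 RPM in eGFP and 70.5 RPM in wt replicate 2. The GIRK1 libraries had 33.7 and 32.1 RPM of NT5E. Its log2 fold change was -2.63 ± 0.49 against eGFP (edgeR adjusted p = 0.0565) and -1.08 ± 0.55 against wt replicate 2 (adjusted p = 0.75). TGFB2, a growth factor, had 4.29 and 12.996 RPM in eGFP, 9.85 RPM in wt replicate 2, and 1.17 and 2.13 RPM in GIRK1. Its log2 fold change was -2.44 ± 0.59 against eGFP (edgeR adjusted p = 0.104) and -2.55 ± 0.65 against wt replicate 2 (adjusted p = 0.373). IGFBP3, which binds insulin-like growth factors, was higher at 1.17 and 10.8 RPM in GIRK1, with 1 to 7 reads in each control library, so that the value rested on GIRK1 replicate 2.

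Of 26 genes of the Hippo pathway and TEAD partners, 23 were tested and 0 were called by edgeR in either comparison, with medians of -0.06 against eGFP and 0.04 against wt replicate 2. At an unadjusted p below 0.05 against eGFP, 3 were lower, where 10.7% of all genes were, and 0 were higher, where 8.13% were. They were MAP4K4 (-0.85), a kinase upstream of LATS, AMOTL1 (-0.62), a relative of AMOTL2, and TAOK3 (-0.66), another upstream kinase. The log2 fold changes of LATS1 (0.17), NF2 (0.04), SAV1 (0.35) and the 4 TEAD genes, from -0.86 to 0.84, did not pass the unadjusted threshold against eGFP.

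Immediate early genes, which respond within minutes to serum and stress, include targets shared with other pathways. Of 11 listed, 10 were tested and 2 were called against eGFP, both lower in GIRK1. Of all genes tested 1.6% were called there (0.84% as lower). IER3 had 247 and 250 RPM in eGFP, 182 RPM in wt replicate 2, and 69.1 and 86.3 RPM in GIRK1, with a log2 fold change of -1.72 ± 0.23 (edgeR adjusted p = 0.0212). FOSB, a partner of JUN in AP-1, had 38.4 and 52.2 RPM in eGFP, 35.0 RPM in wt replicate 2, and 15.7 and 18.9 RPM in GIRK1 (-1.42 ± 0.25, adjusted p = 0.0490). The medians of the list were -0.09 against eGFP and -0.24 against wt replicate 2, where 0 were called.

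**Figure D3:**
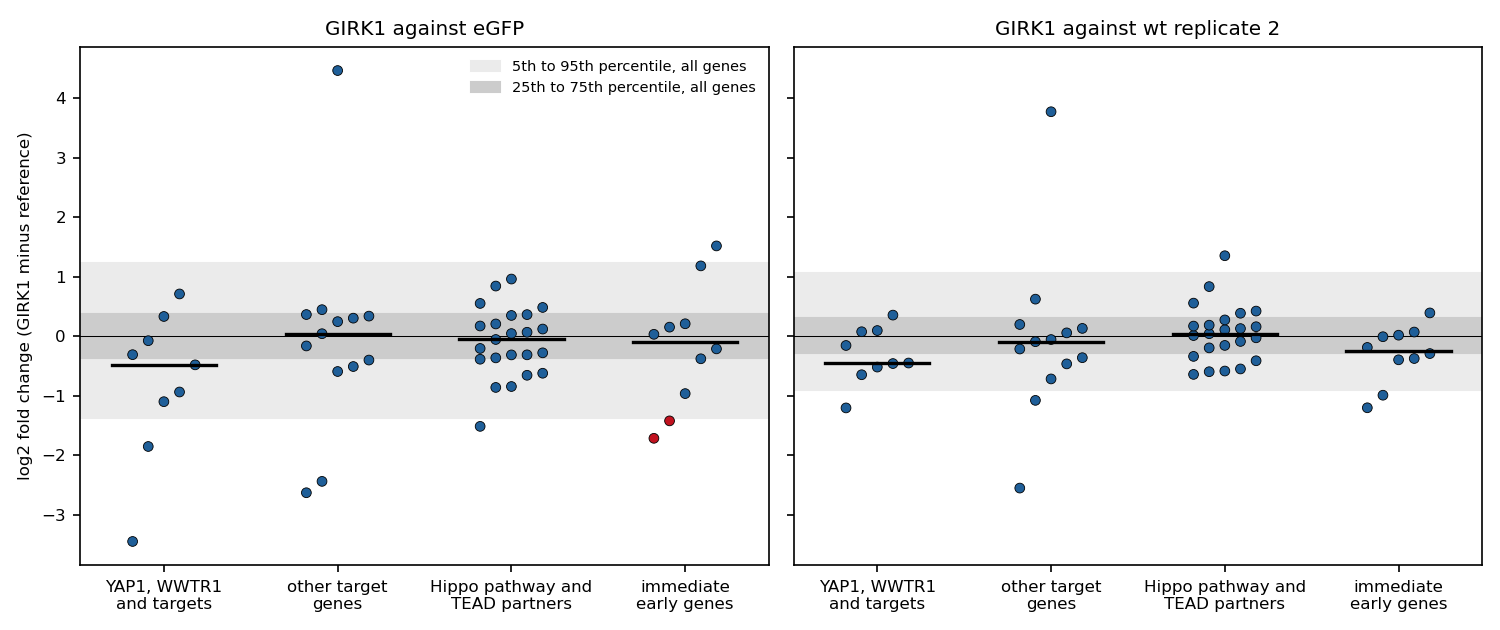
Log2 fold change of every tested gene of 4 lists (left, against eGFP; right, against wt replicate 2), with list medians as black lines, genes past the adjusted threshold in red, and the middle 50% and 90% of all 11779 genes as dark and light grey bands. The median of the YAP1 and WWTR1 list is -0.48 at left and -0.45 at right, and the other 3 medians lie between -0.24 and 0.04.

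Markers of other cell types were low in the 5 libraries. Summed over each list, 8 fibroblast markers reached 48.1 RPM at most, 5 endothelial markers 3.71 RPM and 5 leukocyte markers 22.04 RPM. Among the basal markers 2 were called against eGFP, where 1.6% of all genes tested were. KRT17 was higher (2.17) and LAMB3 lower (-2.81). Of the 8 fibroblast markers 3 were tested, and 1 of them, DCN, was called as higher (3.37). COL1A1 (-0.13) and FAP (-0.92) were not called. DCN had 4 and 38 reads in eGFP and 164 reads in wt replicate 2. Against wt replicate 2 KRT17 (1.43), LAMB3 (-1.55) and DCN (1.37) were not called. The part of these shifts in the values of the members was not tested.

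The library labelled wt replicate 1 differed from wt replicate 2 by 2-fold or more in 38.8% of the 9288 genes. YAP1 had 51.5 RPM, WWTR1 52.7 RPM and CYR61 22.7 RPM, each below all 5 other libraries. AXL had 1 read (0.399 RPM, exact 95% binomial interval 0.0101 to 2.22 RPM) and F3 had 2 reads (0.798 RPM, interval 0.0966 to 2.88 RPM). Levels of CTGF (24.3 RPM), AMOTL2 (69.4 RPM), LATS2 (11.6 RPM) and NUAK2 (4.39 RPM) lay within the ranges of the other libraries. When this library was kept in the fit as a second wt replicate, edgeR called 0 genes in either comparison (606 and 648 at an unadjusted p below 0.05). No member then had an unadjusted p below 0.05.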

How the data were processed

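The authors used the Ion Torrent suite to map Ion S5 XL reads to the transcriptome reference of the AmpliSeq panel (AmpliSeq_Transcriptome_21K.v1), and the version of the suite and a genome build are not given in the sources used here. They deposited 1 table per library with 1 amplicon per gene. The deposited counts are whole, unnormalized total reads per amplicon, and the RPM values that the authors deposited are those counts scaled to the total of the library. The deposited counts of covering reads on each strand served 1 alternative. The 10 spike-in amplicons had 0 reads. Amplicons of the members were 98 to 109 bases long and lie on transcripts, so gene positions were taken from GENCODE by symbol. Reads shared between close paralogs were not examined.

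The main test was that of edgeR 4.0.16 (R 4.3.3) on the counts of 5 libraries in 3 groups, with TMM normalization, filterByExpr (11779 genes kept), glmQLFit, glmQLFTest and Benjamini-Hochberg adjustment over all genes, at a threshold of 0.05, without a replicate block. Standard errors were derived from the F value. DESeq2 1.42.0 served as an alternative test. The procedure was tested on simulated data in which 200 of 11779 genes were changed 8-fold. It recovered 93% of them against eGFP and 91% against wt replicate 2, and also called 11 and 15 unchanged genes. The simulated counts were drawn from the fitted model, with the same spread for a gene in all 5 libraries. Smaller changes and the wider spread of the eGFP pair were not simulated. Groups came from the genotype labels. Intervals are exact binomial (Clopper-Pearson). Intervals and detection limits cover counting error only, and PCR reads are not independent molecules. All members are named. Of the other lists, those past the adjusted threshold are named, and others were named after their values were seen. Members, lists and tests were chosen with earlier results of these data known. Alternatives were other normalizations, filters, a DESeq2 test, other sets of libraries, the block, covering reads and leaving out each library.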

Additional observations from a re-analysis of the deposited data

How the results depend on the processing

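Limits of the data are the 2 libraries per group, the spread between the eGFP libraries and the lone wt replicate 2. Genes called against eGFP numbered 188 (89 higher, 99 lower). They numbered 865 without a filter, 107 with at least 10 reads in every library, 677 with DESeq2, 0 with all 6 libraries, and 158 to 2997 with 1 library left out, the highest without eGFP replicate 2 and 973 without eGFP replicate 1. With the controls as 1 group, 91 were called as higher and 47 as lower. Against wt replicate 2, 27 were called, and under the same alternatives 133, 16, 128 and 0, and 34 to 576 with 1 library left out, the highest without eGFP replicate 1, 449 without eGFP replicate 2 and 64 without GIRK1 replicate 1. Members called against eGFP numbered 0. They numbered 3 without a filter (CYR61, AXL, F3), where 865 of 15206 genes were called. DESeq2 called 2 (CYR61, F3), where it called 677 of 11550 genes. Without wt replicate 2 the members called numbered 0, where 172 of 11279 genes were called. Without eGFP replicate 2, which leaves 1 eGFP library, the members ran from -4.17 (F3) to 0.91 (AMOTL2) against eGFP. Against wt replicate 2, 0 to 1 was called with 1 library left out, F3 without either eGFP library. Fits that leave out a library of a pair assume that the remaining one varies like the other groups. The fold rule without a limit on the coefficient of variation called 2501 genes in place of 1309, with CYR61, NUAK2 and F3 among them.

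Replicate numbers are shared by the labels, but nothing pairs the libraries, and the differences between replicates of eGFP and GIRK1 correlated at 0.192 over 9288 genes (with 2 pairs the numbers were not taken as pairing). With the replicate block 549 of 11779 genes were called against eGFP, 77 against wt replicate 2, and 2 members against eGFP (CYR61, F3). LATS2 against wt replicate 2 was then -0.13.

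Against eGFP, 106 of 126 alternative values of the 9 members kept their direction and side of the threshold, 17 in 5 genes passed it in addition, and 3 changed sign. With 1 library left out CTGF ran from -0.86 to 0.083 and LATS2 from -0.36 to 0.16. Against wt replicate 2, 101 of 108 were kept, 2 passed in addition and 5 changed sign. With all 6 libraries CYR61 was 0.21 and AXL 0.29 against both wt libraries. With 1 library left out LATS2 ran from -0.21 to 0.31 and NUAK2 from -0.42 to 0.057. The causes of these changes were not tested beyond the libraries named.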
